A study of Mus musculus with 9 samples.

Results

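The adipocyte genes described here are the 10 rows of the deposited expression table whose gene name is Adipoq, Cfd, Plin1, Cidec, Fabp4, Lipe, Pnpla2, Lpl, Pparg or Car3, out of 22053 rows of protein-coding genes. They were followed through 9 RNA sequencing libraries of mouse tumours in 3 groups of 3. The liver metastases (metastases 1, 2 and 3) grew from N134-RHAMMB cells given through the tail vein. The N134-RHAMMB tumours (1, 2 and 4) grew from the same line injected under the skin, and the N134 tumours (1, 2 and 3) grew under the skin from N134 cells. N134 is a mouse pancreatic neuroendocrine tumour line, RHAMMB is an isoform of the hyaluronan receptor RHAMM, and no label names the promoter that drives it. The host of all 3 groups was the NSG mouse (NOD.Cg-PrkdcscidIl2rgtm1Wjl/SzJ), which lacks mature T, B and natural killer cells, so no group had a normal lymphoid compartment. The labels give neither the age nor the sex of the hosts. Route of injection and tissue site changed together between metastases and the other groups and cannot be told apart. Metastases and N134 tumours also differed in RHAMMB, which that comparison cannot separate from route and site. Whether replicates are separate animals is not labelled, and the p-values then describe the spread among these samples alone, part of which may be technical.

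White fat cells store triglyceride in a single large lipid droplet coated with perilipin 1 and kept large by the CIDE protein that Cidec encodes. Lipoprotein lipase releases fatty acids from circulating lipoproteins, FABP4 carries them inside the cell, and on demand adipose triglyceride lipase (Pnpla2) and hormone-sensitive lipase (Lipe) release them again. The nuclear receptor PPARG directs the fat cell programme, and mature fat cells secrete adiponectin (Adipoq) and adipsin (Cfd). The skin rests on a layer of fat, while the liver holds few fat cells. Several of the 10 genes are also used outside fat: Fabp4 in capillary endothelium and macrophages, Lpl in muscle and macrophages, Pnpla2 in many tissues, and Car3, a carbonic anhydrase, in muscle and liver.

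The 250 bases before the annotated start are shown for Adipoq, Cfd and Cidec, 3 of the genes that were lowest in metastases, whose RefSeq start coincides with the 5′ end of the gene in the deposited table. The sequences are from RefSeq (GRCm38.p6), on the coding strand. They span chr16:23146286-23146535 (+) for Adipoq, chr10:79890603-79890852 (+) for Cfd and chr6:113435761-113436010 (-) for Cidec. Capitals mark the CCAAT box, which reads ATTGG where it lies on the other strand.
Adipoq: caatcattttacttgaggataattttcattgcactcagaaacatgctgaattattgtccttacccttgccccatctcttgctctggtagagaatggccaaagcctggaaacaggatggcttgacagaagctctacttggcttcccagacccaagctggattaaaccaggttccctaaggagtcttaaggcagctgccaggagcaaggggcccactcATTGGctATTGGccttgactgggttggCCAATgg
Cfd: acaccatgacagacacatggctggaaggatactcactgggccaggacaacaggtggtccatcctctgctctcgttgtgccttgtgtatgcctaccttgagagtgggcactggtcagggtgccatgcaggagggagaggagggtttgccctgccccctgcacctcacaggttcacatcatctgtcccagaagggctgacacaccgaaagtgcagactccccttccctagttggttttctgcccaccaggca
Cidec: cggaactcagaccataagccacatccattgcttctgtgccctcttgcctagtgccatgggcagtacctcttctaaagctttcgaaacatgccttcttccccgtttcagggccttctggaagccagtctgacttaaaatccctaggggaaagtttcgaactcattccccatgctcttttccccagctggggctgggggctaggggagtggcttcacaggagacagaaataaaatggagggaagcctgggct
The Adipoq window holds 3 CCAAT boxes, with first bases at -34, -27 and -7 from the start, while the Cfd and Cidec windows hold none. Searched on both strands, CCAAT occurs in 33.8% of the 32851 mouse promoter windows of 250 bases. None of these 3 windows holds the nuclear receptor half-site AGGTCA (14.0% of windows), a direct repeat of it with 1 base between (0.0335%), the C/EBP site TTGCNNAA (9.56%) or the TATA box TATAAA (12.4%). AGGTCA is contained in its repeat. TTGCNNAA overlaps none of the other motifs searched in the windows of Plin1, where it occurs at 2 places, with first bases at -187 and -58. TTGCNNAA also occurs in a window of Pparg and in that of a second Cidec start, 996 bases from the first, at -198. A match describes the letters and says nothing of binding. Of the 10 genes, 7 had a promoter sequence here.

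Adipoq, Cfd, Plin1 and Cidec were below 1 FPKM or listed at 0 in every liver metastasis and above 0 in every subcutaneous tumour. The other 6 genes were at 1 FPKM or more in every metastasis. In 7 of the 10 genes (Adipoq, Cfd, Plin1, Cidec, Fabp4, Lipe and Pparg) every metastasis lay below every subcutaneous tumour of both kinds, whereas Lpl, Pnpla2 and Car3 overlapped between metastases and each subcutaneous group. Of the 9 genes tested, 6 had this order, against 5.63% of all genes tested. By limma on log2(FPKM + 1), with Benjamini-Hochberg adjustment over 12854 genes, 3 of the 9 genes tested fell in metastases against N134-RHAMMB tumours (Cfd, Fabp4 and Pparg) and none rose. Over all genes tested, 6.56% were called in that comparison, 1.52% as lower and 5.04% as higher. Against N134 tumours 5 of 9 fell in metastases (Adipoq, Cfd, Cidec, Fabp4 and Lipe) and none rose, where 9.93% of all genes were called, 4.23% as lower and 5.69% as higher. Between N134-RHAMMB and N134 tumours limma called 0 of 9, against 0.194% of all genes (0.117% lower and 0.0778% higher). At unadjusted p below 0.05 that comparison had 1 of the 9, Lpl.

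Plin1 was not tested, since it reached 1 FPKM in 2 libraries and the test took genes at 1 FPKM or more in at least 3. Adipoq passed this filter through 5 subcutaneous tumours, and Cfd and Cidec through all 6. These 3 genes could enter the test only by being high outside the metastases, so the counts above lend no support to a shared direction. Among the other 6 genes tested, which were above 1 FPKM in all 9 libraries, 2 fell in metastases against N134-RHAMMB tumours and 2 against N134 tumours. In bulk tissue, fewer cells of a type and less RNA per cell cannot be told apart.

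**Figure D1:**
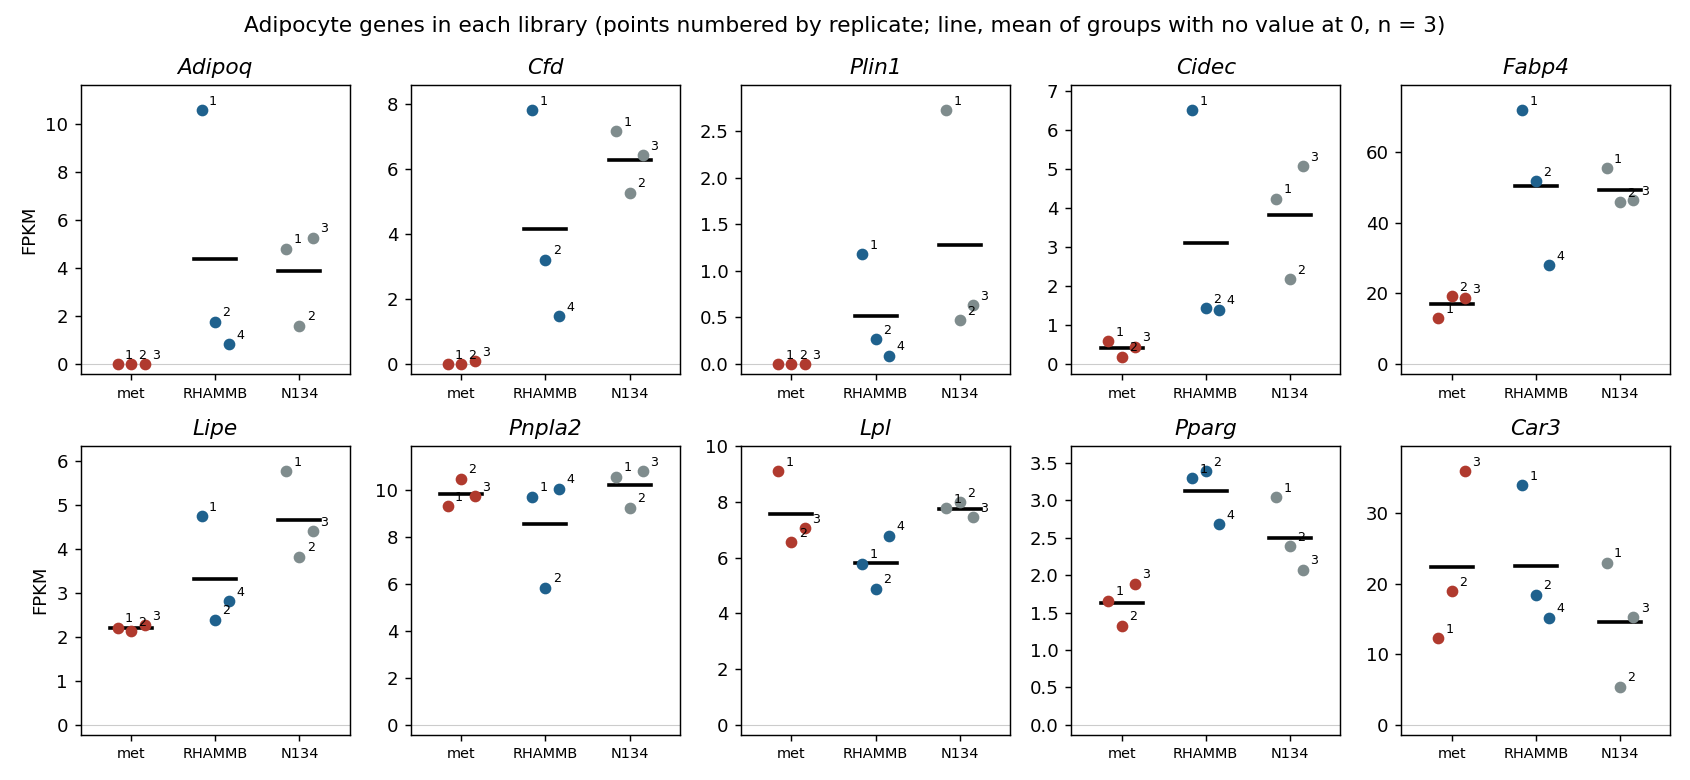
FPKM (y axis) of the 10 adipocyte genes in the metastases (met), N134-RHAMMB tumours (RHAMMB) and N134 tumours (N134); points are libraries numbered by replicate, and lines are means of 3 where no value is 0. Adipoq and Plin1 are listed at 0 in the 3 metastases, Fabp4 lies at 13.1 to 19.2 FPKM there and at 28.1 FPKM or more in the 6 subcutaneous tumours, and Pnpla2, Lpl and Car3 overlap between metastases and both other groups.

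The libraries held an estimated 14.6 to 18.3 M fragments (M, mega) and between 12057 and 12542 genes of 1 FPKM or above. None of 10 housekeeping genes was listed at 0 in any library. The tissue labels fit the defining markers: the 10 islet tumour genes summed to 42238 to 47388 FPKM in metastases, 30893 to 36615 FPKM across N134-RHAMMB tumours and 37214.5 to 41160 FPKM in N134 tumours. Most of each of these sums was Ins2, at 34621 to 38504, 21154 to 28390 and 30636 to 34119 FPKM in the same groups. The 12 hepatocyte genes summed to 3779.6 to 3878 FPKM in metastases, 342 to 449.6 FPKM across N134-RHAMMB tumours and 371 to 459 FPKM in N134 tumours. Most of the subcutaneous sum was Ttr, which islet cells also make. Without it the other 11 genes summed to 3231 to 3391 FPKM in metastases, 59.8 to 62.9 FPKM across N134-RHAMMB tumours and 31.0 to 36.5 FPKM in N134 tumours. Most of what remained under the skin was Serpina1a. Without both, 10 genes summed to 3169 to 3361, 13.1 to 14.2 and 5.65 to 8.08 FPKM in the same groups. Of the N134-RHAMMB group, tumours 2 and 4 stood apart by skeletal muscle transcripts, summed over 13 genes to 212 and 264 FPKM, against 26.6 FPKM in tumour 1, where Ckm was at 0. Metastases held 16.7 to 23.7 FPKM of the same genes and N134 tumours 20.7 to 33.1 FPKM.

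Adipoq (ENSMUSG00000022878, chromosome 16, 23146536 to 23158028, plus strand), which encodes the insulin-sensitising hormone adiponectin, was listed at 0 in metastases 1, 2 and 3. At the estimated depth, 3 fragments of its longest transcript would be worth at most 0.135 FPKM in a metastasis, which is the level that a value of 0 allows, for counting error alone. It stood at 10.6, 1.75 and 0.822 FPKM across N134-RHAMMB tumours 1, 2 and 4, and at 4.80, 1.59 and 5.26 FPKM in N134 tumours 1, 2 and 3. Every subcutaneous tumour was above every metastasis, and N134-RHAMMB tumour 1 was the highest of the 9 libraries. No fold change is given against a group listed at 0. The limma adjusted p was 0.0909 for metastases against N134-RHAMMB tumours and 0.0411 against N134 tumours. The call against N134 tumours was lost without metastasis 1 (adjusted p = 0.0978), metastasis 2 (0.0648), metastasis 3 (0.0944), N134-RHAMMB tumour 2 (0.0562), N134 tumour 1 (0.149) or N134 tumour 3 (0.139). It was also lost with no filter on low values (limma adjusted p = 0.0789) and with library weights (0.0759). Against N134-RHAMMB tumours a call was gained without tumour 4 (limma adjusted p = 0.0307), with a pseudocount of 0.1 (0.00353), with library weights (0.00830) and with the replicate number as a block (0.0161). On the log2(FPKM + 1) scale, the difference of N134-RHAMMB from N134 tumours was -0.23 (SE 0.58, limma adjusted p = 0.914).

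Cfd (ENSMUSG00000061780, chromosome 10, 79890853 to 79892656, plus strand) encodes adipsin, the protease that starts the alternative complement pathway. It was at 0, 0 and 0.0784 FPKM in metastases 1, 2 and 3, at 7.81, 3.21 and 1.48 FPKM across N134-RHAMMB tumours 1, 2 and 4, and at 7.16, 5.27 and 6.43 FPKM in N134 tumours 1, 2 and 3. The metastases did not overlap with either subcutaneous group, and the N134-RHAMMB tumours spread over a wider range than the N134 tumours. Cfd fell by 2.14 on the log2(FPKM + 1) scale in metastases against N134-RHAMMB tumours (SE 0.37, limma adjusted p = 0.00383) and by 2.82 against N134 tumours (SE 0.37, limma adjusted p = 4.61e-04). Both calls held in each of the 9 fits that left out 1 library, with limma adjusted p of at most 0.0187 and 0.00405. For N134-RHAMMB against N134 tumours the difference was -0.68 (SE 0.37, limma adjusted p = 0.476). A difference on this scale understates the change of a gene this low.

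Plin1 (ENSMUSG00000030546, chromosome 7, 79720218 to 79732903, minus strand), the coat protein of the fat cell droplet, was listed at 0 in the 3 metastases. It stood at 1.18, 0.264 and 0.0874 FPKM across N134-RHAMMB tumours 1, 2 and 4 and at 2.72, 0.467 and 0.630 FPKM in N134 tumours 1, 2 and 3. Tumour 1 was the highest of each subcutaneous group, and the 2 subcutaneous groups overlapped. The lowest of these values was close to the 0.0729 FPKM that 3 fragments of the longest Plin1 transcript were worth in the shallowest library.

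Cidec (ENSMUSG00000030278, chromosome 6, 113424634 to 113435760, minus strand), whose product fuses small droplets into large ones, was at 0.582, 0.187 and 0.437 FPKM in metastases 1, 2 and 3. It was at 6.50, 1.43 and 1.39 FPKM across N134-RHAMMB tumours 1, 2 and 4, and at 4.23, 2.17 and 5.07 FPKM in N134 tumours 1, 2 and 3. It was read in every metastasis, unlike Adipoq and Plin1, and every metastasis was below every subcutaneous tumour. Metastases differed from N134-RHAMMB tumours by -1.34 on the log2(FPKM + 1) scale (SE 0.42, limma adjusted p = 0.105). Against N134 tumours Cidec fell by 1.74 in metastases (SE 0.42, limma adjusted p = 0.0239). That call was lost without metastasis 1 (limma adjusted p = 0.0503), metastasis 2 (0.0512), metastasis 3 (0.0603), N134 tumour 1 (0.0943) or N134 tumour 3 (0.0929), and with library weights (0.0572). Against N134-RHAMMB tumours a call was gained with a pseudocount of 0.1 (limma adjusted p = 0.0417), quantile normalization (0.0358), library weights (0.0119) or the replicate block (0.0207). The difference of N134-RHAMMB from N134 tumours was -0.40 (SE 0.42, limma adjusted p = 0.740).

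The 2 N134-RHAMMB tumours with muscle transcripts had the lower Adipoq, Cfd, Plin1, Cidec and Fabp4 values of their group. Tumours 2 and 4 were left out in an alternative chosen after seeing the data. Tumour 1 then remained, the highest of its group for Adipoq, Cfd, Cidec and Fabp4, and was assumed to vary like the other groups. On the log2(FPKM + 1) scale, metastases differed from it by -3.10 for Cfd, -2.43 for Cidec and -2.04 for Fabp4. The difference was -0.84 for Lipe, -0.72 for Pparg, -0.71 for Car3, 0.33 for Lpl and 0.02 for Pnpla2. Adipoq, listed at 0 in metastases, is left out here. Larger differences for the first 3 follow from the choice of tumour and lend no support to a fall. Adipoq, Cidec and Cfd had also entered the test only through subcutaneous tumours. The part of the muscle transcripts in these results was not tested.

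Fabp4 (ENSMUSG00000062515, chromosome 3, 10204088 to 10208576, minus strand), the fatty acid carrier of fat cells, was at 13.1, 19.2 and 18.6 FPKM in metastases 1, 2 and 3. It was at 71.9, 51.8 and 28.1 FPKM across N134-RHAMMB tumours 1, 2 and 4 and at 55.4, 45.8 and 46.4 FPKM in N134 tumours 1, 2 and 3. The means were 17.0 ± 3.39 FPKM in metastases, 50.6 ± 21.96 FPKM across N134-RHAMMB tumours and 49.2 ± 5.39 FPKM in N134 tumours (SD, n = 3). The metastases lay below both other groups without overlap, and their Fabp4 level was above that of Adipoq, Cfd, Plin1 and Cidec in any library. Fabp4 fell by 1.44 on the log2(FPKM + 1) scale in metastases against N134-RHAMMB tumours (SE 0.29, limma adjusted p = 0.0103) and by 1.50 against N134 tumours (SE 0.29, limma adjusted p = 0.00669). Both calls held without each library in turn, at limma adjusted p of up to 0.0493 and 0.0369. The N134-RHAMMB and N134 tumours overlapped and differed by -0.05 (SE 0.29, limma adjusted p = 0.965). Endothelial markers, of a cell type that also makes FABP4, summed over 12 genes to 107 to 140.4 FPKM in metastases, 118 to 133 FPKM across N134-RHAMMB tumours and 122 to 154 FPKM in N134 tumours. No endothelial gene was called in any of the 3 comparisons, and at unadjusted p below 0.05 limma had 3, 1 and 1 of the 12. Of 12 macrophage markers, of another such cell type, none was called in metastases against N134-RHAMMB tumours and 9 were lower against N134 tumours. They summed to 237 to 392 FPKM in metastases, 362 to 488 FPKM across N134-RHAMMB tumours and 500.1 to 858 FPKM in N134 tumours. The part of endothelial cells or of macrophages in the Fabp4 result was not tested.

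Lipe (ENSMUSG00000003123, chromosome 7, 25379527 to 25398710, minus strand), hormone-sensitive lipase, was at 2.20, 2.12 and 2.26 FPKM in metastases 1, 2 and 3. It was at 4.73, 2.38 and 2.81 FPKM across N134-RHAMMB tumours 1, 2 and 4 and at 5.77, 3.82 and 4.39 FPKM in N134 tumours 1, 2 and 3. The metastases lay close together under every subcutaneous tumour, with N134-RHAMMB tumour 2 nearest to them. Lipe fell by 0.81 in metastases against N134 tumours (log2(FPKM + 1) scale, SE 0.21, limma adjusted p = 0.0378). The call was lost without metastasis 1 (limma adjusted p = 0.0864), metastasis 2 (0.0589), metastasis 3 (0.0811), N134-RHAMMB tumour 4 (0.0518), N134 tumour 1 (0.153), N134 tumour 2 (0.0557) or N134 tumour 3 (0.0918), and also with no filter on low values (0.0645) or with library weights (0.0612). Against N134-RHAMMB tumours the difference of metastases was -0.39 (SE 0.21, limma adjusted p = 0.415, and 0.0431 with library weights), and that of N134-RHAMMB against N134 tumours was -0.42 (SE 0.21, limma adjusted p = 0.454). An antisense gene, 4732471J01Rik, spans all of Lipe, so without strand information the reads of both cannot be told apart.

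Pnpla2 (ENSMUSG00000025509, chromosome 7, 141455198 to 141460743, plus strand), the lipase that takes the first fatty acid from triglyceride, was at 9.31, 10.5 and 9.73 FPKM in metastases 1, 2 and 3. It was at 9.69, 5.84 and 10.04 FPKM across N134-RHAMMB tumours 1, 2 and 4 and at 10.6, 9.23 and 10.8 FPKM in N134 tumours 1, 2 and 3. The 3 groups overlapped, and the single low value was that of N134-RHAMMB tumour 2. Metastases differed by 0.22 from N134-RHAMMB tumours and by -0.05 from N134 tumours (SE 0.19 each, limma adjusted p = 0.652 and 0.933). With Lipe lower and Pnpla2 overlapping, the ratio of Lipe to Pnpla2 FPKM was 0.202 to 0.237 in metastases, 0.280 to 0.488 across N134-RHAMMB tumours and 0.407 to 0.546 in N134 tumours.

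Lpl (ENSMUSG00000015568, chromosome 8, 68880491 to 68907448, plus strand), lipoprotein lipase, was at 9.11, 6.55 and 7.06 FPKM in metastases 1, 2 and 3. It was at 5.78, 4.88 and 6.79 FPKM across N134-RHAMMB tumours 1, 2 and 4 and at 7.78, 7.99 and 7.46 FPKM in N134 tumours 1, 2 and 3. Metastasis 1 was the highest of the 9 libraries, metastases 2 and 3 lay below every N134 tumour, and every N134-RHAMMB tumour was below every N134 tumour. The difference of N134-RHAMMB from N134 tumours was -0.37 on the log2(FPKM + 1) scale (SE 0.16, limma adjusted p = 0.373). Metastases differed by 0.33 from N134-RHAMMB tumours and by -0.04 from N134 tumours (SE 0.16 each, with limma adjusted p = 0.350 and 0.933). With library weights the limma adjusted p was 0.0356 for N134-RHAMMB against N134 tumours and 0.0476 for metastases against N134-RHAMMB tumours. Over all genes, these weights raised the calls from 25 to 2629 in the first comparison and from 843 to 1950 in the second.

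Pparg (ENSMUSG00000000440, chromosome 6, 115360951 to 115490399, plus strand) was at 1.66, 1.32 and 1.89 FPKM in metastases 1, 2 and 3, at 3.29, 3.39 and 2.68 FPKM across N134-RHAMMB tumours 1, 2 and 4, and at 3.05, 2.39 and 2.07 FPKM in N134 tumours 1, 2 and 3. The metastases did not overlap with either group, and the 2 subcutaneous groups overlapped. Pparg fell by 0.65 in metastases against N134-RHAMMB tumours (log2(FPKM + 1) scale, SE 0.17, limma adjusted p = 0.0431), and its difference from N134 tumours was -0.41 (SE 0.17, limma adjusted p = 0.176). The call was lost without metastasis 1 (limma adjusted p = 0.0889), metastasis 2 (0.0749), metastasis 3 (0.0536), N134-RHAMMB tumour 1 (0.172), N134-RHAMMB tumour 2 (0.144), N134-RHAMMB tumour 4 (0.0574), N134 tumour 2 (0.0738) or N134 tumour 3 (0.0578). It was also lost with only the 2 groups compared in the fit (0.0924), with no filter on low values (0.0579) and with the replicate number as a block (0.133). The antisense gene Gm44079 overlaps part of Pparg, and without strand information its reads cannot be told apart there.

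Car3 (ENSMUSG00000027559, chromosome 3, 14863512 to 14872523, plus strand), an abundant soluble protein of mouse fat, was at 12.3, 18.9 and 36.0 FPKM in metastases 1, 2 and 3. It was at 34.0, 18.5 and 15.2 FPKM across N134-RHAMMB tumours 1, 2 and 4 and at 23.0, 5.37 and 15.2 FPKM in N134 tumours 1, 2 and 3. The 3 groups overlapped, and each spanned more than the distance between their means of 22.4 ± 12.2, 22.5 ± 10.04 and 14.5 ± 8.83 FPKM (SD, n = 3; metastases, N134-RHAMMB tumours and N134 tumours). Metastases differed by -0.05 from N134-RHAMMB tumours and by 0.66 from N134 tumours, and N134-RHAMMB differed from N134 tumours by 0.72 (log2(FPKM + 1) scale, SE 0.50 each). The limma adjusted p was 0.975, 0.519 and 0.598 for these differences, and 0.0461 for the last with library weights. Those weights raised the calls over all genes between N134-RHAMMB and N134 tumours from 25 to 2629. The hepatocyte markers that stood high in metastases mark a tissue that also makes Car3. The muscle markers, of another such tissue, were high in N134-RHAMMB tumours 2 and 4, where Car3 was lower than in tumour 1. The part of either in the Car3 values was not tested.

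**Figure D2:**
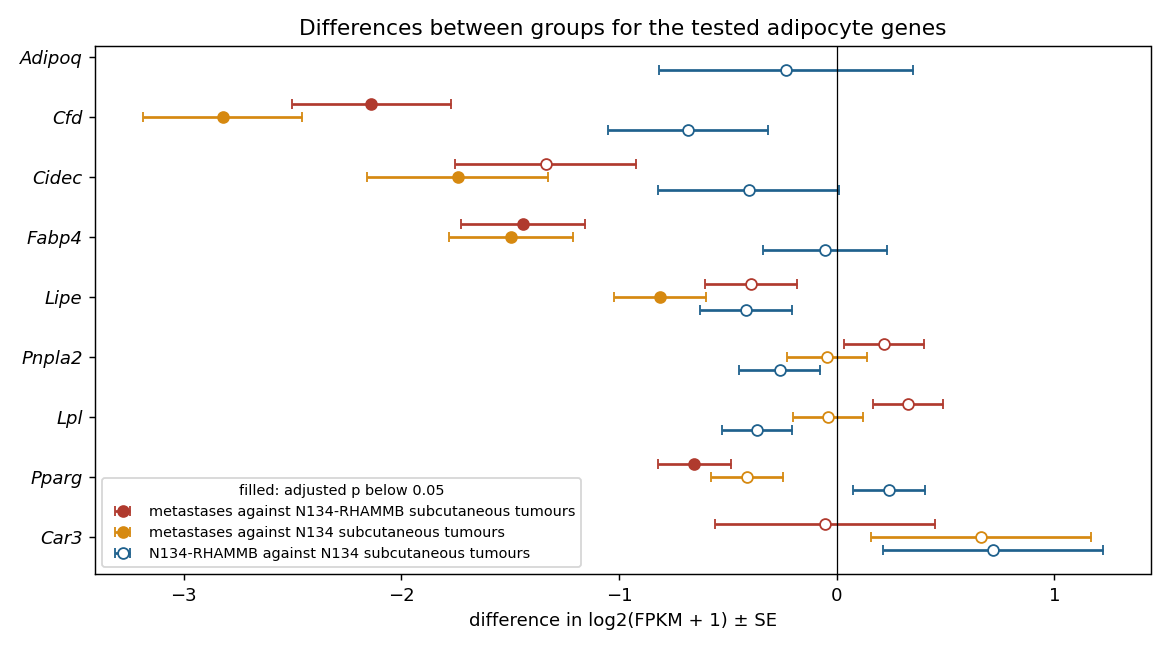
Difference in log2(FPKM + 1) with its SE (x axis) for the 9 tested adipocyte genes in metastases against N134-RHAMMB tumours (red), metastases against N134 tumours (orange) and N134-RHAMMB against N134 tumours (blue), filled where the limma adjusted p is below 0.05; Adipoq has no value against metastases, where it is listed at 0. Cfd lies at -2.14 and -2.82 and Fabp4 at -1.44 and -1.50 in the comparisons with metastases, and no blue point is filled.

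In FPKM, which is per length, Fabp4 and Car3 had the highest means of the 10 genes in each group, followed by Pnpla2 and Lpl. Single libraries departed from this order. In N134 tumour 2, Car3 (5.37 FPKM) was below Pnpla2 (9.23 FPKM) and Lpl (7.99 FPKM). In N134-RHAMMB tumour 1, Adipoq (10.6 FPKM) was above Pnpla2 (9.69 FPKM) and Lpl (5.78 FPKM). Car3 averaged above Fabp4 in metastases and below it in both subcutaneous groups, and the ranges of both genes overlapped in metastases and in N134-RHAMMB tumours. Pnpla2 and Lpl did not overlap in metastases (9.31 to 10.5 and 6.55 to 9.11 FPKM), nor in N134 tumours, while they did in N134-RHAMMB tumours. Adipoq, Cfd, Lipe, Pparg and Cidec followed in the N134-RHAMMB tumours, and Cfd, Lipe, Adipoq, Cidec and Pparg in the N134 tumours. In both of these orders each gene overlapped with the next, and Plin1 had the lowest mean.

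The subcutaneous tumours of a group differed among themselves. Adipoq was 12.9 times as high in N134-RHAMMB tumour 1 as in tumour 4, and 3.30 times as high in N134 tumour 3 as in tumour 2. The corresponding ratio of highest to lowest was 5.28 for Cfd, 4.68 for Cidec and 2.56 for Fabp4 in N134-RHAMMB tumours, against 1.36, 2.33 and 1.21 in N134 tumours. In each of these genes N134-RHAMMB tumour 1 was the highest of its group and tumour 4 the lowest, and N134 tumour 2 was the lowest of its own. The SD of log2(FPKM + 1) of Adipoq over the N134-RHAMMB tumours, 1.40, was above that of 99.9% of the tested genes, and over the N134 tumours, 0.70, above 99.2%. Pparg and Lpl spread less: their SD over N134-RHAMMB tumours was above that of 43.0% and 63.1% of genes. The sum of Adipoq, Cidec and Plin1 was 0.582, 0.187 and 0.437 FPKM in metastases 1, 2 and 3. It was 18.2, 3.45 and 2.30 FPKM across N134-RHAMMB tumours 1, 2 and 4 and 11.8, 4.23 and 11.0 FPKM in N134 tumours 1, 2 and 3. The ratio of Fabp4 to Adipoq ran from 6.81 to 34.1 in N134-RHAMMB tumours and from 8.83 to 28.8 in N134 tumours, so Fabp4 was not in a fixed proportion to Adipoq.

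**Figure D3:**
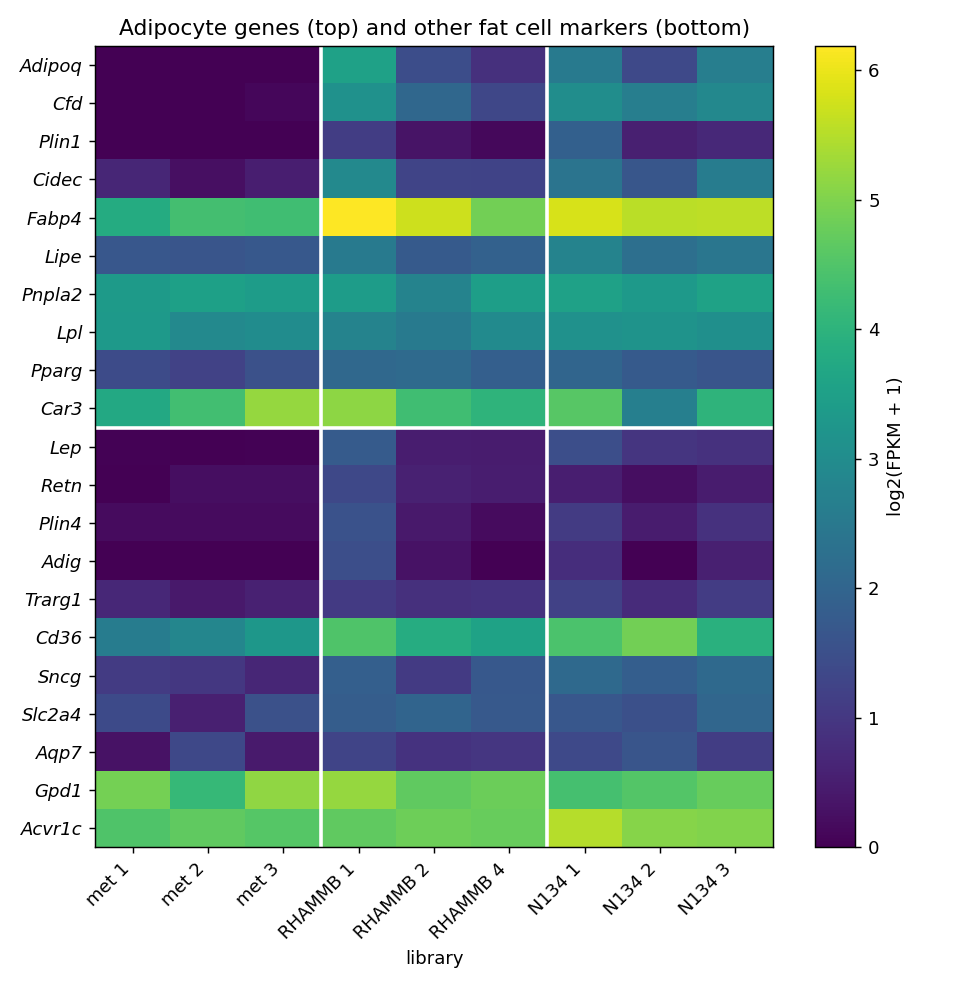
Level of each gene as log2(FPKM + 1) (colour) in the 9 libraries (columns; metastases, N134-RHAMMB tumours and N134 tumours from left to right), with the 10 adipocyte genes above the line and 11 other fat cell markers below it. Adipoq, Cfd, Plin1, Lep and Adig are dark in the 3 metastases and brightest in N134-RHAMMB tumour 1 or N134 tumour 1, while Pnpla2 and Lpl change little in colour across libraries.

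Likeness to Adipoq was measured as Pearson's r of log2(FPKM + 1) over the 9 libraries, across 13604 genes, as a description: the libraries share their groups, and the 3 metastases are tied at 0. Cidec ranked 1st (r = 0.98), Cfd 6th (0.94), Fabp4 9th (0.92) and Lipe 31st (0.89). Plin1 ranked 111 (0.82) and Pparg 522 (0.71). Car3, Pnpla2 and Lpl ranked 5810, 7191 and 10559, with r of 0.18, 0.06 and -0.27. Outside the 10 genes, the closest were Taf13 (0.97), Cct3 (0.97), Plin4 (0.95), Lep (0.94), Lancl2 (0.93), Rbpj (0.92), Strap (0.91), Egflam (0.91), Fam98b (0.90) and Dnttip2 (0.90). Plin4, a perilipin of fat cells, was at 0.135, 0.142 and 0.132 FPKM in metastases 1, 2 and 3, at 1.96, 0.344 and 0.137 FPKM across N134-RHAMMB tumours 1, 2 and 4, and at 1.11, 0.380 and 0.847 FPKM in N134 tumours 1, 2 and 3. Lep, the satiety hormone leptin, was at 0.0192, 0 and 0.0188 FPKM in the metastases, at 2.42, 0.405 and 0.390 FPKM in the N134-RHAMMB tumours, and 1.82, 0.941 and 0.845 FPKM in the N134 tumours. Over the 6 subcutaneous tumours alone, r with Adipoq was 0.96 for Cidec, 0.86 for Cfd, 0.82 for Fabp4, 0.75 for Lipe and 0.69 for Plin1. It was 0.65 for Car3, 0.35 for Pnpla2, 0.16 for Pparg and -0.03 for Lpl.

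Of 18 other fat cell markers, 9 were tested. In metastases against N134-RHAMMB tumours 2 rose and none fell, with a median log2 difference of -0.35, against -0.06 over all genes tested. Against N134 tumours 2 rose and 3 fell, with a median of -0.59, against -0.03 over all. N134-RHAMMB against N134 tumours had no call among them, and 1 at unadjusted p below 0.05. Those that fell against N134 tumours were Cd36, the fatty acid translocase (-1.50, SE 0.29, limma adjusted p = 0.00743), Sncg, gamma-synuclein (-1.11, SE 0.23, limma adjusted p = 0.0101), and Acvr1c, the activin receptor ALK7 (-0.62, SE 0.14, limma adjusted p = 0.0154). The Acvr1c call was lost without metastasis 1 (limma adjusted p = 0.0530). Acvr1c was at 21.3, 24.6 and 22.5 FPKM in metastases 1, 2 and 3, where Adipoq and Plin1 were listed at 0, and its source was not tested. Cd36 was at 5.05, 6.20 and 8.67 FPKM in metastases 1, 2 and 3, at 21.4, 13.1 and 10.9 FPKM across N134-RHAMMB tumours 1, 2 and 4 and at 20.6, 28.2 and 14.2 FPKM in N134 tumours 1, 2 and 3. Cd36 is also made by macrophages and capillary endothelium. The genes that rose were Pck1, a gluconeogenic enzyme, and Thrsp, a lipogenic regulator, both also used by liver. Thrsp, which reached 1 FPKM in metastases alone and so entered the test only through them, rose by 1.72 and 1.67 against N134-RHAMMB and N134 tumours (SE 0.26 each, limma adjusted p = 0.00155 and 0.00171). Pck1 rose by 1.86 and 1.79 (SE 0.41 each, limma adjusted p = 0.0185 and 0.0183). The first Pck1 call was lost without metastasis 1 or 3 or N134-RHAMMB tumour 2 or 4 (adjusted p up to 0.0786), and the second without metastasis 1 or 3 or N134 tumour 2 or 3 (up to 0.0808). Adig, adipogenin, was listed at 0 in the 3 metastases, in N134-RHAMMB tumour 4 and in N134 tumour 2. Adrb3 was listed at 0 in the 6 subcutaneous tumours and was 0.0446 to 0.156 FPKM in metastases.

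Of 19 genes of lipid droplets and triglyceride turnover, 17 were tested, and 6 rose and none fell in metastases against N134-RHAMMB tumours. The same numbers rose and fell against N134 tumours, and none was called between N134-RHAMMB and N134 tumours, where 2 had an unadjusted p below 0.05 by limma. In each comparison with metastases 11 of the 17 did not pass the test. Cideb, Plin5 and Fitm1 reached 1 FPKM in metastases alone and entered the test only through them, so their calls lend no support to a shared direction. The medians were 0.54, 0.30 and 0.00 in that order, against -0.06, -0.03 and 0.01 over all genes. Cideb, the CIDE protein of liver, was at 8.52, 10.02 and 11.7 FPKM in metastases 1, 2 and 3, at 0.0640, 0 and 0.0679 FPKM across N134-RHAMMB tumours 1, 2 and 4 and at 0.419, 0.184 and 0.191 FPKM in N134 tumours 1, 2 and 3. It rose by 3.40 and 3.13 against N134-RHAMMB and N134 tumours (log2(FPKM + 1) scale, SE 0.16 each, limma adjusted p = 1.24e-07 and 2.24e-07). The ratio of Cideb to Cidec was 14.6 to 53.4 in metastases, at most 0.0489 in N134-RHAMMB tumours and at most 0.0990 in N134 tumours. Plin5, a perilipin of oxidative tissues, rose by 1.10 and 1.32 (SE 0.16 each, limma adjusted p = 0.00121 and 2.89e-04). Fitm1 and Dgat2, which act in droplet formation and in the last step of triglyceride synthesis, rose by 1.49 and 0.98 against N134-RHAMMB tumours and by 1.59 and 0.98 against N134 tumours (limma adjusted p at most 0.00177). Agpat2 rose against N134 tumours (1.39, limma adjusted p = 0.00362) and G0s2, an inhibitor of Pnpla2, against N134-RHAMMB tumours (1.12, limma adjusted p = 0.0306). Acsl1 rose by 0.79 in both (limma adjusted p = 0.0406 and 0.0298). The G0s2 call was lost without metastasis 1 or 3, N134-RHAMMB tumour 2 or 4 or N134 tumour 1 (adjusted p up to 0.124). The Acsl1 call against N134-RHAMMB tumours was lost without any of the metastases, any of the N134-RHAMMB tumours or N134 tumour 3 (up to 0.149), and that against N134 tumours without metastasis 2 or 3 or N134 tumour 2 or 3 (up to 0.102). Hepatocyte markers moved with these genes, with 11 of 12 called as higher in metastases against each subcutaneous group, and their part in the result was not tested.

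**Figure D4:**
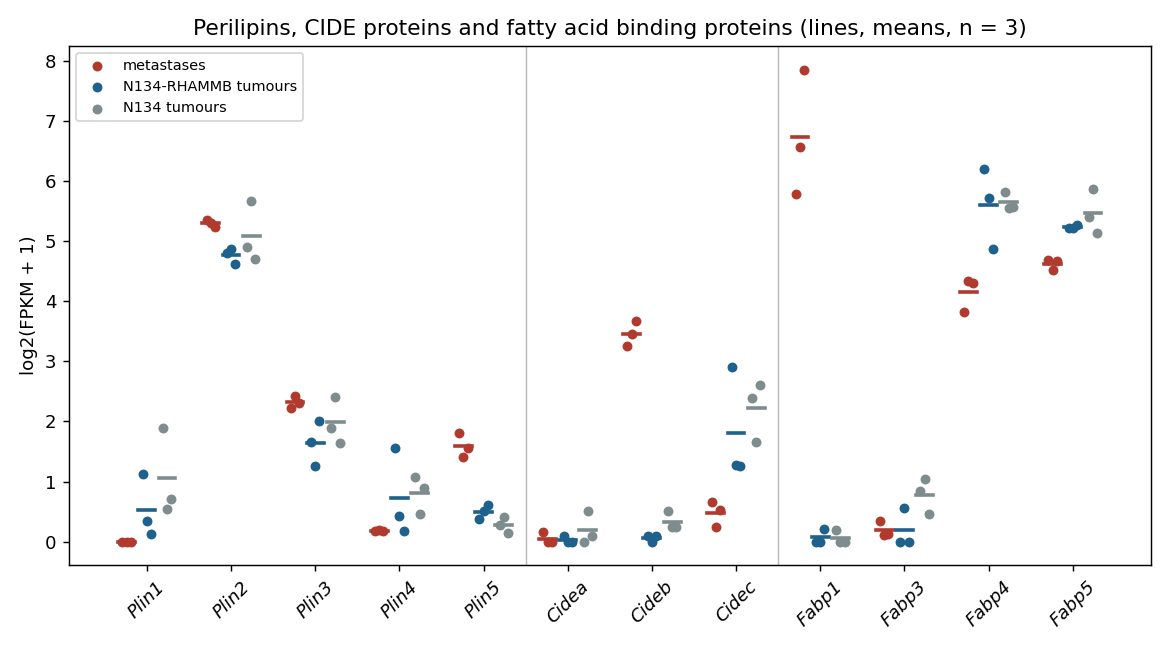
Level as log2(FPKM + 1) (y axis) of perilipins, CIDE proteins and fatty acid binding proteins in metastases (red), N134-RHAMMB tumours (blue) and N134 tumours (grey); points are libraries, and lines are means of 3. Plin1, Cidec and Fabp4 are lower in metastases than in the subcutaneous tumours, and Plin5, Cideb and Fabp1 are higher.

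Among partners of lipoprotein lipase and carriers of fatty acids, 14 of 15 genes were tested. In metastases 7 rose and none fell against N134-RHAMMB tumours (median 0.77), and 7 rose and 1 fell against N134 tumours (median 0.51). Over all genes tested the medians were -0.06 and -0.03. None of the 14 was called between N134-RHAMMB and N134 tumours, where limma had 3 at unadjusted p below 0.05. Apoc2, the activator of lipoprotein lipase, and Apoa5, which aids it, were listed at 0 in the 6 subcutaneous tumours and at 14.6 to 27.6 and 19.9 to 23.7 FPKM in metastases. Apoc3, Lipc and Fabp1 rose in both comparisons (limma adjusted p at most 1.90e-06). Apoc2, Apoa5, Lipc and Fabp1 reached 1 FPKM in metastases alone and could enter the test only by being high there. Angptl8 rose by 1.17 against N134-RHAMMB tumours (limma adjusted p = 8.10e-04) and by 0.66 against N134 tumours (limma adjusted p = 0.0268), the second call being lost without metastasis 2 or 3 or N134 tumour 2 or 3 (up to 0.111). Fabp5, a close relative of Fabp4, averaged 23.6 ± 1.45 FPKM in metastases, 36.5 ± 0.855 FPKM across N134-RHAMMB tumours and 44.1 ± 12.1 FPKM in N134 tumours (SD, n = 3). It fell by 0.84 in metastases against N134 tumours (SE 0.16, limma adjusted p = 0.00791). Gpihbp1, which holds lipoprotein lipase on capillaries, was at 23.8 to 26.7 FPKM in metastases, 16.5 to 22.7 FPKM across N134-RHAMMB tumours and 17.7 to 23.6 FPKM in N134 tumours. Hepatocytes make the apolipoproteins, Lipc and Fabp1, and the part of the hepatocyte markers here was not tested.

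Of 15 transcription factors of the fat cell programme, 9 were tested. In metastases 3 rose and none fell against N134-RHAMMB tumours (median 0.36), and 3 rose and 1 fell against N134 tumours (median 0.37). Over all genes tested the medians were -0.06 and -0.03. Klf15 and Ppara, a relative of Pparg that drives fatty acid oxidation in liver, rose by 1.54 and 1.55 against N134-RHAMMB tumours and by 1.56 and 1.59 against N134 tumours (limma adjusted p at most 3.70e-04). Both reached 1 FPKM in metastases alone and could enter the test only by being high there. Cebpa rose against N134-RHAMMB tumours (1.05, limma adjusted p = 0.0146), a call lost without N134-RHAMMB tumour 2 (0.0582). Nr1h3 rose against N134 tumours (0.79, limma adjusted p = 0.0480) and Ebf1, an early factor of the fat lineage, fell (-1.06, limma adjusted p = 0.0399). The Nr1h3 call was lost without metastasis 1 or 3, N134-RHAMMB tumour 1 or any of the N134 tumours (adjusted p up to 0.176). The Ebf1 call was lost when any 1 library other than metastasis 1 was left out (up to 0.144). Between N134-RHAMMB and N134 tumours no factor was called, and none had an unadjusted p below 0.05 by limma. Hepatocyte markers had 11 of 12 called as higher in metastases against each subcutaneous group, and their part in these calls was not tested.

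The receptors of adiponectin were present in every library. Adipor1 was at 34.9 to 56.2 FPKM in metastases, 32.7 to 38.6 FPKM across N134-RHAMMB tumours and 32.4 to 37.8 FPKM in N134 tumours, and Adipor2 at 19.99 to 21.9, 14.6 to 17.7 and 15.9 to 17.6 FPKM in the same groups. Of 8 genes tested among 9 of adiponectin and insulin signalling, 1 was called, Cdh13, which encodes the T-cadherin that binds adiponectin. It was at 1.19, 0.998 and 1.63 FPKM in metastases 1, 2 and 3, at 3.36, 3.21 and 3.45 FPKM across N134-RHAMMB tumours 1, 2 and 4 and at 3.78, 5.63 and 4.30 FPKM in N134 tumours 1, 2 and 3. Cdh13 fell by 0.94 in metastases against N134-RHAMMB tumours (SE 0.17, limma adjusted p = 0.00586) and by 1.29 against N134 tumours (SE 0.17, limma adjusted p = 5.61e-04). Both calls held without each library in turn. The list's medians were -0.02 and 0.03, and between N134-RHAMMB and N134 tumours it had no call and no gene at unadjusted p below 0.05 by limma.

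Fibroblast markers, of a cell type that lies among fat cells under the skin, also moved with the groups. Their 12 genes summed to 192 to 407 FPKM in metastases, 319 to 533 FPKM across N134-RHAMMB tumours and 666 to 949.7 FPKM in N134 tumours. In metastases 4 fell and 1 rose against N134-RHAMMB tumours and 9 fell against N134 tumours, and 2 fell in N134-RHAMMB against N134 tumours. Over all genes tested, 1.52%, 4.23% and 0.117% were called as lower in these comparisons, and 5.04% as higher in the first. Thy1 and Mfap5 reached 1 FPKM in subcutaneous tumours alone and could enter the test only by being high there. Macrophage markers had 9 of 12 lower in metastases against N134 tumours and no call against N134-RHAMMB tumours or between the subcutaneous groups, where limma had 5 and 11 of the 12 at unadjusted p below 0.05. Their part in the levels of the adipocyte genes was not tested.

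**Figure D5:**
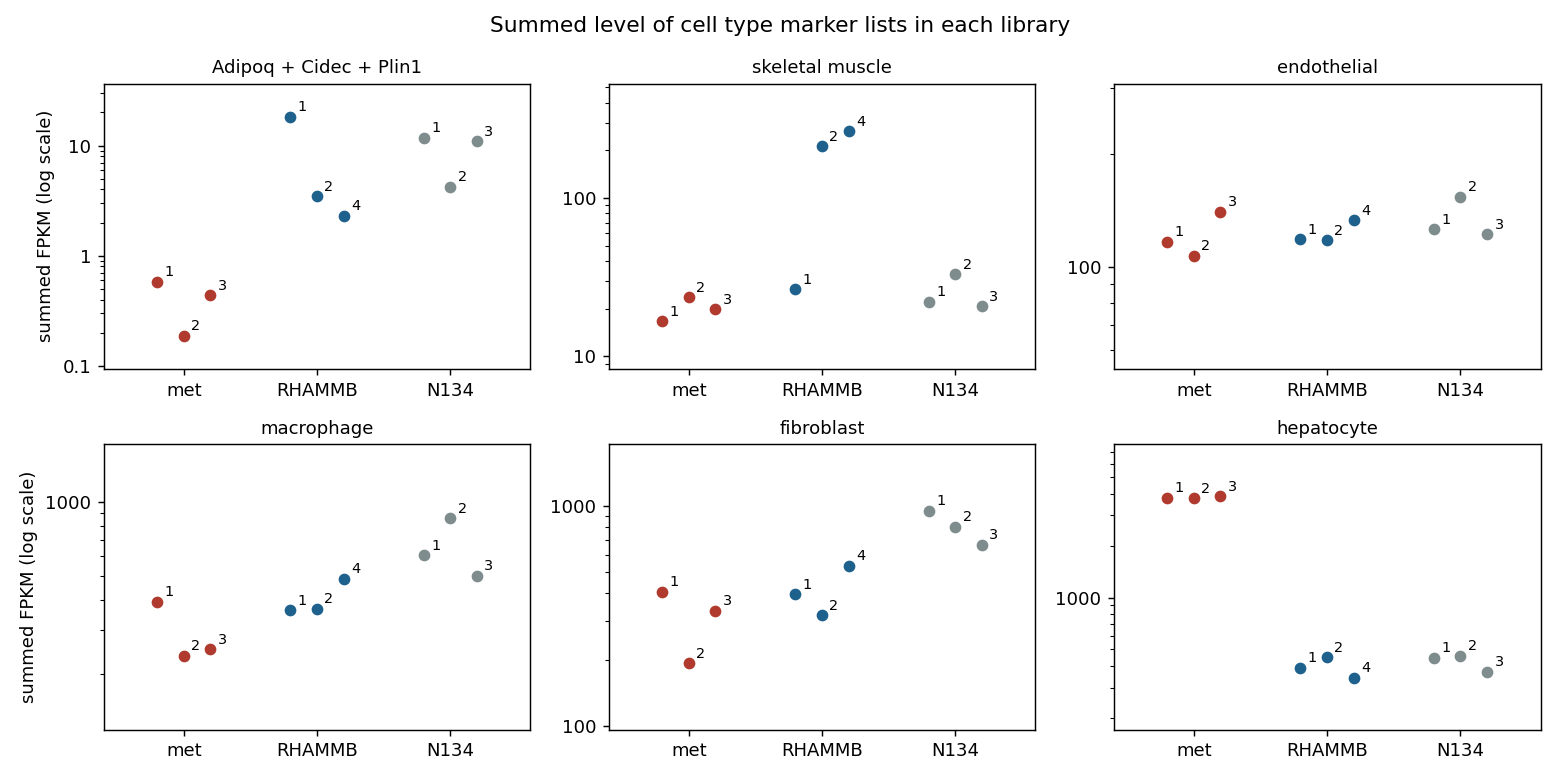
Summed FPKM (y axis, log scale, its own range in each panel) of 3 defining fat cell markers and of 5 other marker lists in metastases (met), N134-RHAMMB tumours (RHAMMB) and N134 tumours (N134); points are libraries numbered by replicate. The fat cell sum lies at 0.187 to 0.582 FPKM in metastases and at 2.30 FPKM or more in the subcutaneous tumours, the muscle sum at 212 and 264 FPKM across N134-RHAMMB tumours 2 and 4, and the endothelial sum between 107 and 154 FPKM throughout.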

How the data were processed

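RNA from 9 tumour samples was sequenced. The submitters' processing notes name the GRCm38 build, Cufflinks 2.1.1, STAR 2.5.2 and bcl2fastq 2.19 without their roles, and strand setting and read length were not stated. Per the file headers, the table deposited by the authors holds FPKM (fragments per kilobase and per M mapped fragments, M for mega) and an estimate status for each of 22053 rows and 9 libraries. FPKM divides by length and library size, so each value also depends on the share other genes take.

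From these values, 7 rows with a failed estimate and 102 repeats of a symbol were left out. Values were log2(FPKM + 1). The 12854 genes with at least 1 FPKM in at least 3 libraries entered limma 3.58.1 (R 4.3.3), in 1 model over all 9 libraries with a variance trend, 2-sided, with Benjamini-Hochberg adjustment and a threshold of 0.05. The code was tested on simulated data first. Exact permutation of 3 against 3 libraries reaches no p below 0.1 and was not used. Deposited starts were raised by 1, since 82.2% of 21887 rows lay 1 below the GENCODE M21 start of the same build. Depth was estimated from the lowest values of single-transcript genes of 2000 to 6000 nucleotides, where 1 fragment in a 2 kb transcript was worth 0.0273 to 0.0342 FPKM, and floors cover counting error only. Figures were drawn in Python 3.11.15.

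The 17 lists, which include that of the 10 genes, were chosen with earlier results of these data known. All 10 members are named. Of pathway lists, genes past the threshold are named, or up to 4 with the largest difference, and of cell type lists the sums and markers at 0. Genes named besides these (Adipor1, Adipor2, Gpihbp1, Lep, Plin4, Adig, Adrb3) were chosen after their values were seen or by likeness to Adipoq. One gene that the rule selects is not reported here. Alternatives were another pseudocount, other filters, scalings, variance models, library weights, a replicate block, only 2 groups, and each library left out.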

Additional observations from a re-analysis of the deposited data

How the results depend on the processing

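Over 498 alternative values of the single adipocyte genes, 429 kept their direction and their side of the threshold, 35 lost the call, 14 gained one and 20 changed sign, each of these 20 being uncalled before and after. Of the 9 genes tested, 3 were called in metastases against N134-RHAMMB tumours. That count was 5 with a pseudocount of 0.1, 1 with a mean of at least 5 FPKM (a filter that 4 of the 10 genes passed) and 7 with library weights. Against N134 tumours the count of 5 became 3 with no filter, 1 with a mean of at least 5 FPKM and 2 with library weights, and 2 to 5 when 1 library was left out. The 0 genes called between N134-RHAMMB and N134 tumours became 2 with library weights (Lpl and Car3). Over all genes, 25 of 12854 were called in that comparison in the reported fit, and 2629 with library weights. These 2 calls therefore do not set Lpl and Car3 apart from other genes. For metastases against N134-RHAMMB tumours, where 7 of the 9 were called with library weights, the calls over all genes rose from 843 to 1950.

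The changes of sign were as follows (log2 differences). N134-RHAMMB against N134 tumours, negative for these 5 genes in the reported fit, gave 0.94 for Adipoq, 0.063 for Cfd, 0.43 for Fabp4 and 0.40 for Cidec with library weights, and 0.43 for Adipoq and 0.33 for Fabp4 with the replicate block. Without tumours 2 and 4 they gave 1.35, 0.28, 0.54 and 0.69 for the same 4 genes and 0.033 for Lipe. Lpl in metastases against N134 tumours was 0.068 with library weights. With 1 library left out, the ranges that crossed 0 were -1.02 to 0.31 for Adipoq and -0.35 to 0.31 for Fabp4 in N134-RHAMMB against N134 tumours, -0.0054 to 0.34 for Pnpla2 and -0.45 to 0.29 for Car3 in metastases against N134-RHAMMB tumours, and -0.16 to 0.047 for Lpl in metastases against N134 tumours. The cause was not tested.

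Over all genes, the 843 calls of metastases against N134-RHAMMB tumours became 347 with a mean of at least 5 FPKM, 1950 with library weights and 504 without N134-RHAMMB tumours 2 and 4. The 1276 calls against N134 tumours became 594 with that mean. The 25 calls between N134-RHAMMB and N134 tumours became 15 with that mean, 169 with only the 2 groups, 2629 with library weights, 1 without tumours 2 and 4, and 0 to 193 without 1 library. Fewer genes were tested under the stricter filter, and fewer samples without tumours; the other causes were not tested.

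Same-numbered libraries correlated at -0.003 to 0.10 in their deviations from group means, and differently numbered libraries at -0.19 to 0.15. No label says whether the numbers pair the samples, and with 3 libraries per group these correlations cannot settle it. With the replicate number as a block, 4, 5 and 0 of the 9 genes and 646, 1097 and 1 genes in all were called in metastases against N134-RHAMMB tumours, metastases against N134 tumours and N134-RHAMMB against N134 tumours. Other scalings moved the median log2 difference of all genes by at most 0.05. Levels under about 0.1 FPKM rest on a few fragments, so 0 in a metastasis means not detectable at this depth.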

Other observations

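Listing at 0 in the 3 metastases with a value above 0 in all 6 subcutaneous tumours was found for 42 of 21944 genes (0.191%), Adipoq and Plin1 among them.

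The carbonic anhydrase family of Car3 had 6 of 14 genes tested. Car8, which reached 1 FPKM in metastases alone, rose in metastases against N134-RHAMMB tumours (0.78, limma adjusted p = 0.0357) and against N134 tumours (0.68, limma adjusted p = 0.0498), at 1.91 ± 0.662 FPKM in metastases, 0.677 ± 0.243 FPKM across N134-RHAMMB tumours and 0.781 ± 0.0841 FPKM in N134 tumours (SD, n = 3). Both Car8 calls were lost when any 1 library other than metastasis 1 was left out (limma adjusted p up to 0.143 and 0.153). Car10 fell by 1.73 (limma adjusted p = 0.00622) and 1.34 (limma adjusted p = 0.0226), at 0.412, 0.0746 and 1.77 FPKM in metastases 1, 2 and 3, 4.17, 4.48 and 4.39 FPKM across N134-RHAMMB tumours 1, 2 and 4 and 3.85, 2.04 and 3.65 FPKM in N134 tumours 1, 2 and 3. The second Car10 call was lost without metastasis 1 or N134 tumour 1 or 3 (limma adjusted p up to 0.0987).

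Of 6 tested genes listed for the resident macrophages of liver, Clec4f and C6 rose and Folr2 fell in metastases against each subcutaneous group. Clec4f rose by 1.87 and 1.80 against N134-RHAMMB and N134 tumours (limma adjusted p = 0.00135 and 0.00160) and Folr2 fell by 1.89 and 2.45 (limma adjusted p = 0.00516 and 7.14e-04). The list of 7 genes summed to 20.5 to 30.6 FPKM in metastases, 6.31 to 11.9 FPKM across N134-RHAMMB tumours and 5.79 to 26.0 FPKM in N134 tumours. Without C6 the sums were 4.89 to 11.97 FPKM in metastases, 6.12 to 11.4 FPKM across N134-RHAMMB tumours and 5.49 to 25.6 FPKM in N134 tumours. C6 and Clec4f reached 1 FPKM in metastases alone and entered the test only through them. Folr2 reached 1 FPKM in subcutaneous tumours alone and entered the test only through those tumours. Stellate cell and pericyte markers summed to 130 to 205 FPKM in metastases, 97.7 to 176 FPKM across N134-RHAMMB tumours and 170 to 229 FPKM in N134 tumours. Keratinocyte markers summed to 4.40 to 8.70, 4.87 to 17.7 and 4.37 to 13.2 FPKM in the same groups. Lymphocyte markers stood at 1.29 FPKM or less in sum in every library.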
